A study of Mus musculus with 11 samples.

Results

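Transcript levels of 10 mouse genes that set the pace of G1 were followed in lineage-negative bone marrow cells carrying a CSF3R mutation with or without a CEBPA mutation. The genes were the D-type cyclins Ccnd1, Ccnd2 and Ccnd3, the kinases Cdk4 and Cdk6 that they activate, the CIP/KIP inhibitors Cdkn1a (p21), Cdkn1b (p27) and Cdkn1c (p57), and the INK4 inhibitors Cdkn2c (p18) and Cdkn2d (p19). They were taken by name and family, with earlier results of these data known, and all 10 were found among the 51912 genes of the count table. The INK4 genes Cdkn2a and Cdkn2b were not among the 10 and are described apart. The study asked whether the order in which the mutations of CSF3R and CEBPA appear matters for the resulting cells. Marrow of C57BL/6 mice with a tamoxifen-activated Cre at Rosa26 was transduced with a retrovirus expressing 1 gene at all times with GFP and another that Cre switches on. In the CSF3R-only group (n = 4) the constant gene was CSF3R T618I and the inducible vector was empty. In the CSF3R-first group (n = 3) CSF3R T618I was constant and CEBPA V314VW was switched on later, and in the CEBPA-first group (n = 4) CEBPA V314VW was constant and CSF3R T618I came later. All 3 groups were sorted as lineage-negative, doubly fluorescent cells. They were then kept for 48 h in cytokine-free medium with 4-hydroxytamoxifen before RNA was taken. Thus every group carried CSF3R T618I and had been exposed to the drug, no group lacked both mutations or carried CEBPA V314VW alone, and both mutant genes were expressed from retroviral vectors rather than from their own loci. The labels do not say whether the replicates came from separate mice, so the p-values measure the spread between these samples, which may be technical.

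D-type cyclins are made in response to growth signals and bind CDK4 or CDK6, and the resulting kinases phosphorylate the retinoblastoma protein and so free E2F factors to switch on the genes of S phase. INK4 proteins bind CDK4 and CDK6 and block them, whereas p21, p27 and p57 bind whole cyclin-kinase complexes, inhibit CDK2 and can also help to assemble cyclin D with its kinase. In the myeloid lineage, C/EBPα is known to restrain division as granulocytes mature, and CDK6 is the partner kinase most associated with blood progenitors and leukaemia.

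Total counts per library ranged from 47905747 to 72268346. Chi-square per degree of freedom between replicates was 9.24 to 40.8 within CSF3R-only and CEBPA-first and 23.6 between CSF3R-first replicates B and C, but 103 and 79.2 for CSF3R-first replicate A against these. CSF3R-first replicate A therefore stood apart, and results that change without it are given both ways. The mouse genes for the transgenes also differed: Cebpa had 87.2 ± 6.98, 131 ± 10.4 and 167 ± 6.12 CPM (counts scaled to a common library size, ± SD) and Csf3r 846 ± 94.9, 516 ± 118 and 154 ± 16.1 CPM. Here and below, 3 values in a row stand for CSF3R-only (n = 4), for CSF3R-first (n = 3) and for CEBPA-first (n = 4). Neither checks the labels, since the vectors carry the human genes.

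Transcripts of the 2 kinases and of Ccnd2 were highest in CEBPA-first cells, while Ccnd3, the most abundant D cyclin, and the INK4 inhibitor Cdkn2d were lowest there. The inhibitors Cdkn1b and Cdkn1a fell from CSF3R-only to CEBPA-first, and their CSF3R-first samples overlapped both of these groups. Without CSF3R-first replicate A, the remaining CSF3R-first samples lay below all CSF3R-only samples for both genes. Of the 10 genes, 9 had enough counts to be tested with edgeR's quasi-likelihood test, and Cdkn1c did not. Between CEBPA-first and CSF3R-only, 4 rose and 5 fell at an adjusted p below 0.05, in a comparison where 72.0% of all 15703 tested genes were called, 35.4% higher and 36.6% lower. Past a 2-fold change as well, Ccnd2, Cdk6 and Cdk4 rose (8.07% of all genes did) and Ccnd1 fell (19.0% of all genes). Between CEBPA-first and CSF3R-first, 3 were higher and 3 lower, with 48.3% of all genes called (24.0% higher, 24.3% lower), and Ccnd2 was the 1 member higher by at least 2-fold (2.57% of all genes). Between CSF3R-first and CSF3R-only, 3 rose and 2 fell, with 42.7% of all genes called (21.6% higher, 21.1% lower), and 0 changed by at least 2-fold (6.65% of all genes). Without CSF3R-first replicate A, 4 rose and 4 fell in this comparison, where Ccnd2, Cdkn1a and Cdkn1b were called as well, and 3 were higher and 2 lower between CEBPA-first and CSF3R-first, where Cdkn1b was no longer called. Samples did not overlap for 8, 5 and 6 of the 10 members in these comparisons, against 68.7%, 52.2% and 42.1% of the tested genes. For 4 members, Ccnd3, Cdk4, Cdk6 and Cdkn2d, the 3 groups were all apart, as they were for 28.1% of the tested genes. The median log2 fold change over the tested members was -0.36, -0.20 and -0.16 in these comparisons, and over all tested genes it was -0.0045, 0.00052 and -0.022. Since every pair of comparisons shares a group, their values are not independent of each other.

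**Figure D1:**
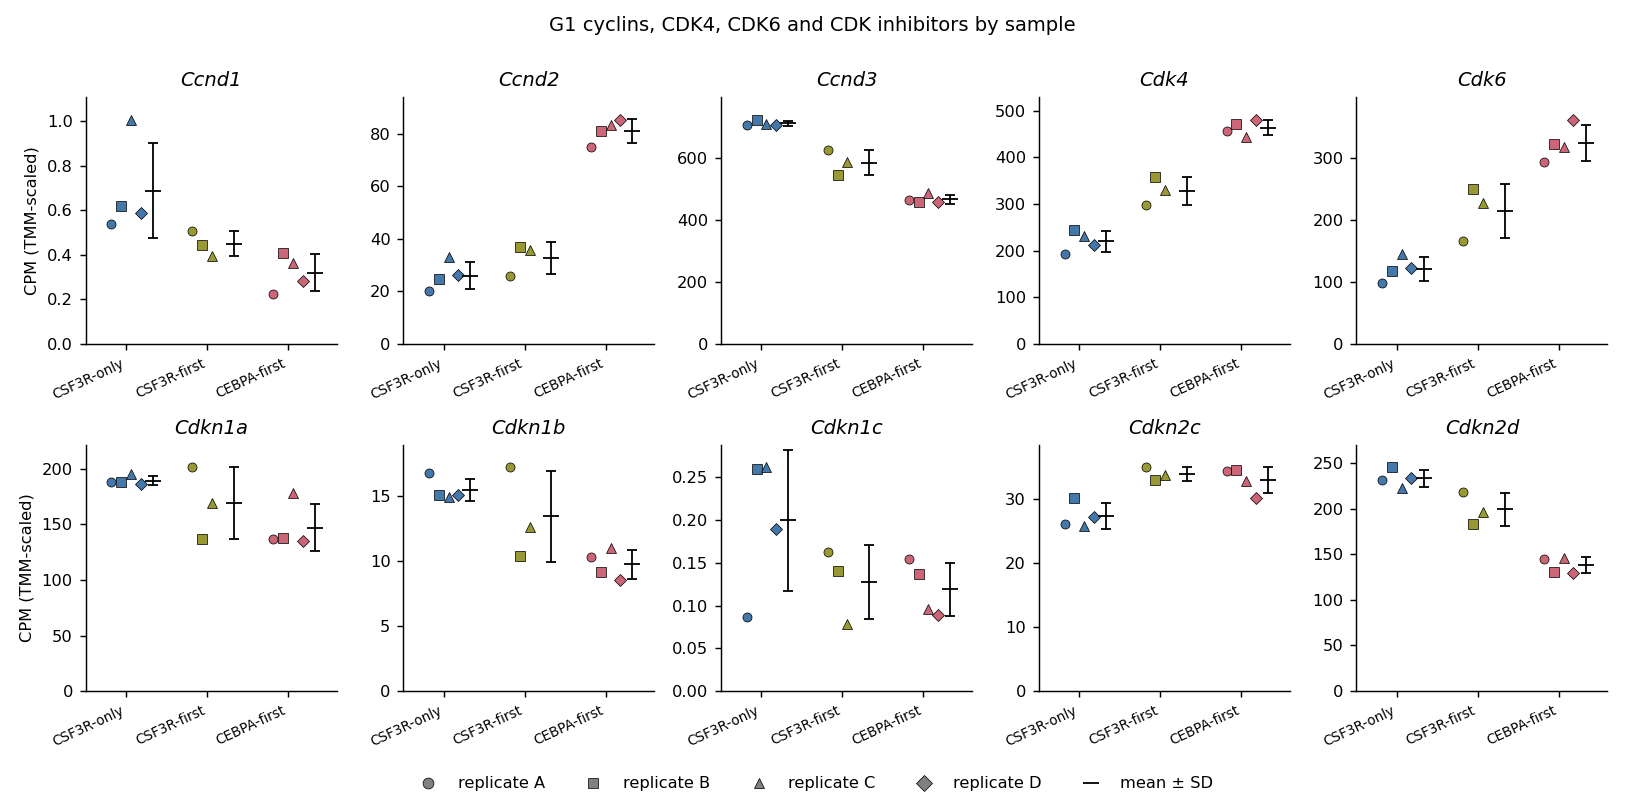
TMM-scaled CPM (y axis, linear from 0, a scale per gene) of the 10 genes in each sample of the 3 groups; symbols give the replicate letter and the black bars the mean ± SD. Ccnd3, Cdk4, Cdk6 and Cdkn2d form 3 groups of points that do not overlap, and Ccnd2 is high in the 4 CEBPA-first samples.

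Ccnd2 encodes cyclin D2, a D cyclin of blood progenitors and B cells that responds to cytokines (ENSMUSG00000000184, chromosome 6, 127125162 to 127152193, minus strand; positions here are on GRCm38). It had 20.15, 24.71, 32.94 and 25.99 CPM in CSF3R-only replicates A to D. The CSF3R-first replicates A to C had 25.63, 36.79 and 35.82 CPM, and the CEBPA-first replicates A to D had 74.99, 80.97, 83.35 and 85.48 CPM. All CEBPA-first samples thus lay above all others, while the remaining groups overlapped through CSF3R-first replicate A. Ccnd2 rose 3.13-fold from CSF3R-only to CEBPA-first (log2 fold change 1.65, SE 0.14, adjusted p = 3.5e-07), and it was 2.48-fold higher in CEBPA-first than in CSF3R-first (log2 1.31, SE 0.15, adjusted p = 2.9e-05). From CSF3R-only to CSF3R-first the log2 difference was 0.34 (95% interval 0.015 to 0.66) and did not pass (adjusted p = 0.085). Without CSF3R-first replicate A it was 0.48 (adjusted p = 0.0099), and without CSF3R-only replicate C 0.47 (adjusted p = 0.016). With no filter on low counts it was 0.38 (adjusted p = 0.026). It also passed with the replicate letter as a block (values in the last section), though the labels do not say what the letters mark.

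Ccnd3 encodes cyclin D3, which is used by many blood lineages (ENSMUSG00000034165, chromosome 17, 47505051 to 47599691, plus strand). Its level was 707.9, 726.1, 712.5 and 709.7 CPM in CSF3R-only, 626.4, 545.6 and 587.7 CPM in CSF3R-first and 464.3, 457.9, 487.9 and 458.1 CPM in CEBPA-first. The 3 groups did not overlap, and the CSF3R-only samples differed by only 1.16% (coefficient of variation). Ccnd3 fell by 0.61 on the log2 scale from CSF3R-only to CEBPA-first (SE 0.0591, adjusted p = 1.1e-06), to 0.654 of its level. The difference was -0.33 between CEBPA-first and CSF3R-first (SE 0.0634, adjusted p = 0.0012) and -0.28 between CSF3R-first and CSF3R-only (SE 0.064, adjusted p = 0.0039). Exons of Bysl, a ribosome assembly gene on the opposite strand, cover 4.11% of the Ccnd3 exon bases, and Bysl moved the other way (log2 0.78, adjusted p = 6.7e-06, CEBPA-first against CSF3R-only).

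Ccnd1, the cyclin D1 gene of many solid tissues (ENSMUSG00000070348, chromosome 7, 144929931 to 144939925, minus strand), was close to the limit of detection with 13 to 50 counts per library. It had 0.54, 0.62, 1.01 and 0.59 CPM in CSF3R-only, 0.51, 0.44 and 0.40 CPM in CSF3R-first and 0.22, 0.41, 0.36 and 0.28 CPM in CEBPA-first. CSF3R-only samples were the highest without overlap, and the groups with both mutations overlapped. The fall from CSF3R-only to CEBPA-first was -1.11 on the log2 scale (SE 0.28, adjusted p = 0.0028). It stayed called but below 2-fold without CSF3R-only replicate C (-0.87) or without CEBPA-first replicate A (-0.97). The differences of -0.49 between CEBPA-first and CSF3R-first (95% interval -1.15 to 0.17) and -0.62 between CSF3R-first and CSF3R-only (95% interval -1.26 to 0.02) did not pass (adjusted p = 0.21 and 0.11). Exons of LTO1 on the opposite strand cover 23.4% of the Ccnd1 exon bases. LTO1 was far more abundant (13.4 to 14 CPM in CSF3R-only, 9.64 to 11.5 CPM in CEBPA-first) and fell too (log2 -0.38, adjusted p = 0.00068). Whether the counting used strand is not given in the sources used here, and the part of LTO1 reads in the Ccnd1 values was not tested.

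Cdk4 (ENSMUSG00000006728, chromosome 10, 127063534 to 127067920, plus strand) encodes the cyclin D partner kinase found in most dividing cells. It had 192.7, 243.3, 231.9 and 211 CPM in CSF3R-only replicates A to D. The CSF3R-first replicates had 298.5, 358.4 and 329.6 CPM and the CEBPA-first replicates 457.1, 471.5, 444.2 and 481.4 CPM. Cdk4 thus stood at 3 separate levels, lowest in CSF3R-only and highest in CEBPA-first. It rose 2.11-fold from CSF3R-only to CEBPA-first (log2 1.08, SE 0.0812, adjusted p = 1.3e-07). The step from CSF3R-only to CSF3R-first was 1.5-fold (log2 0.58, SE 0.0863, adjusted p = 0.00032), and the difference between CEBPA-first and CSF3R-first was 1.41-fold (log2 0.50, SE 0.0876, adjusted p = 0.0007). Tspan31, a tetraspanin gene on the opposite strand, covers 19.7% of the Cdk4 exon bases. Tspan31 had 114 to 135 CPM in CSF3R-only and 101 to 112 CPM in CEBPA-first and fell (log2 -0.20, adjusted p = 0.015), the opposite direction to Cdk4.

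Cdk6 (ENSMUSG00000040274, chromosome 5, 3341485 to 3531008, plus strand) encodes the second cyclin D kinase. Its levels were 97.41, 116.8, 145.2 and 122.3 CPM in CSF3R-only, 166.5, 250.6 and 227.2 CPM in CSF3R-first and 293.1, 323.2, 317.6 and 362.1 CPM in CEBPA-first. Again the 3 groups did not overlap, and CSF3R-first replicate A was the lowest of its group. Cdk6 rose 2.69-fold from CSF3R-only to CEBPA-first (log2 1.43, SE 0.135, adjusted p = 8.9e-07) and 1.78-fold from CSF3R-only to CSF3R-first (log2 0.83, SE 0.142, adjusted p = 0.00076). CEBPA-first exceeded CSF3R-first 1.51-fold (log2 0.59, SE 0.145, adjusted p = 0.005), and without CSF3R-first replicate A the log2 difference was 0.44 (adjusted p = 0.016).

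Cdkn2d encodes p19, an INK4 inhibitor of CDK4 and CDK6 (ENSMUSG00000096472, chromosome 9, 21288410 to 21291407, minus strand). It had 230.8, 245.5, 222.4 and 233.4 CPM in CSF3R-only, 218, 182.7 and 196.6 CPM in CSF3R-first and 144.9, 130.3, 145.8 and 129.9 CPM in CEBPA-first. The 3 groups did not overlap, with CSF3R-first replicate A closest to the lowest CSF3R-only sample. Cdkn2d fell by 0.76 on the log2 scale from CSF3R-only to CEBPA-first (SE 0.0689, adjusted p = 6.2e-07) and differed by -0.53 between CEBPA-first and CSF3R-first (SE 0.0736, adjusted p = 0.00012). The step from CSF3R-only to CSF3R-first was small (log2 -0.23, SE 0.0743, adjusted p = 0.026). This step did not pass without replicate B (-0.20, adjusted p = 0.056) or D (-0.23, adjusted p = 0.052) of CSF3R-only or without replicate B (-0.17, adjusted p = 0.13) or C (-0.20, adjusted p = 0.089) of CSF3R-first, and without CSF3R-first replicate A it was -0.30 (adjusted p = 0.0053).

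Cdkn2c, the gene of the related inhibitor p18 (ENSMUSG00000028551, chromosome 4, 109660876 to 109667189, minus strand), moved the other way. It had 26.03, 30.12, 25.68 and 27.11 CPM in CSF3R-only, 34.93, 32.88 and 33.72 CPM in CSF3R-first and 34.35, 34.46, 32.72 and 30.03 CPM in CEBPA-first. Among these, the highest CSF3R-only sample reached the lowest CEBPA-first sample, and the groups with both mutations overlapped. All CSF3R-first samples lay above all CSF3R-only samples. Cdkn2c rose by 1.24-fold from CSF3R-only to CSF3R-first (log2 0.31, SE 0.0737, adjusted p = 0.0049) and by 1.21-fold to CEBPA-first (log2 0.27, SE 0.0685, adjusted p = 0.003). A two-sided exact permutation test over the samples gave p = 0.0571 for each of these differences, of which the first was between samples that did not overlap. The smallest possible p is 0.0286 in both comparisons. Between CEBPA-first and CSF3R-first the log2 difference was -0.04 (95% interval -0.20 to 0.12, adjusted p = 0.67). It was the only one of the 10 genes whose CSF3R-first mean did not lie between the other means, although without CSF3R-first replicate A this also held for Cdkn1c on the log2 scale.

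The other genes of the INK4 family, Cdkn2a and Cdkn2b, are close neighbours and were scarce. Cdkn2b, which encodes p15, had 0.768 ± 0.0863, 0.227 ± 0.0689 and 0.223 ± 0.0811 CPM (SD). It fell by 1.77 on the log2 scale to CEBPA-first (adjusted p = 8.9e-05) and by 1.76 to CSF3R-first (adjusted p = 0.0011), and the CEBPA-first and CSF3R-first groups differed by -0.01 (adjusted p = 0.98). Cdkn2a, the gene of p16 and ARF, had 0.178 ± 0.085, 0.224 ± 0.0903 and 0.152 ± 0.0509 CPM and was not called in any comparison (adjusted p = 0.33 to 0.65).

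Cdkn1a, the p21 gene that p53 activates (ENSMUSG00000023067, chromosome 17, 29090976 to 29100727, plus strand), had 188.2, 188, 195.2 and 186 CPM in CSF3R-only. It had 201.6, 137 and 169 CPM in CSF3R-first and 136.5, 138.1, 178.6 and 135.3 CPM in CEBPA-first. Every CEBPA-first sample was below every CSF3R-only sample, and CSF3R-first spanned both groups. Cdkn1a fell by 0.36 on the log2 scale from CSF3R-only to CEBPA-first (SE 0.113, adjusted p = 0.011). CEBPA-first differed from CSF3R-first by -0.20 (95% interval -0.46 to 0.06, adjusted p = 0.19). The same difference passed without CEBPA-first replicate C (-0.31, adjusted p = 0.037) or without CSF3R-first replicate B (-0.33, adjusted p = 0.028), and without CSF3R-first replicate A it was -0.05 (adjusted p = 0.74). CSF3R-first differed from CSF3R-only by -0.16 (95% interval -0.43 to 0.10, adjusted p = 0.31), and by -0.31 without CSF3R-first replicate A (adjusted p = 0.04). With library sizes alone in place of TMM scaling, a choice that shifts the median of all genes to 0.13, the fall to CEBPA-first was -0.23 (adjusted p = 0.062).

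Cdkn1b, the p27 gene (ENSMUSG00000003031, chromosome 6, 134920401 to 134925513, plus strand), had 16.74, 15.08, 14.92 and 15.04 CPM in CSF3R-only. The values were 17.19, 10.4 and 12.61 CPM in CSF3R-first and 10.29, 9.16, 10.98 and 8.49 CPM in CEBPA-first. CEBPA-first was below CSF3R-only without overlap, and the CSF3R-first samples again ran from above the one to within the other. Cdkn1b fell by 0.67 on the log2 scale from CSF3R-only to CEBPA-first (SE 0.135, adjusted p = 0.00058) and differed by -0.46 between CEBPA-first and CSF3R-first (SE 0.145, adjusted p = 0.019). The latter difference did not pass without CSF3R-first replicate A (-0.24, adjusted p = 0.12) or without CEBPA-first replicate B (-0.44, adjusted p = 0.05). CSF3R-first differed from CSF3R-only by -0.21 (95% interval -0.52 to 0.11, adjusted p = 0.28) and, without its replicate A, by -0.42 (adjusted p = 0.0095). Cdkn1c, the imprinted p57 gene (ENSMUSG00000037664, chromosome 7, 143458339 to 143461050, minus strand), had 4 to 13 counts per library. That is 0.0864, 0.26, 0.262 and 0.19 CPM for CSF3R-only replicates A to D, 0.162, 0.141 and 0.079 CPM for CSF3R-first and 0.154, 0.136, 0.096 and 0.0894 CPM for CEBPA-first, with overlap in every comparison. At this depth a difference between CEBPA-first and CSF3R-only was not detectable (two-sided exact permutation p = 0.171).

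**Figure D2:**
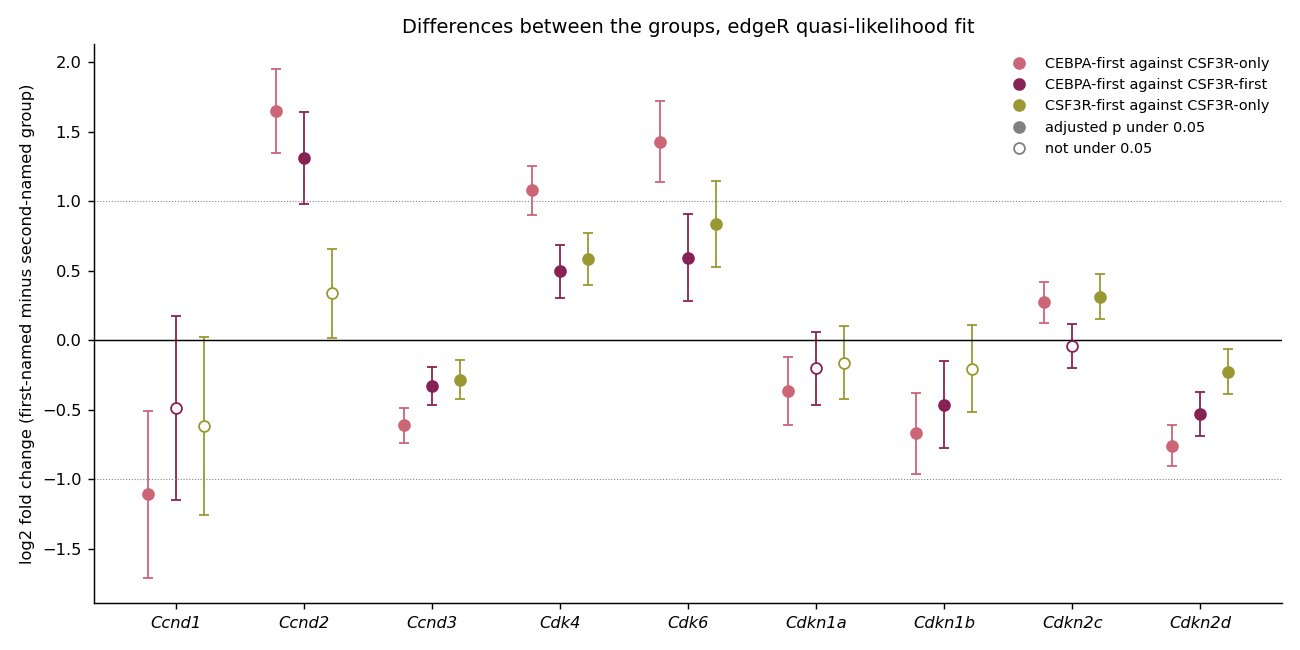
Log2 fold change (y axis, first-named minus second-named group) of the 9 tested genes in the 3 comparisons; bars are 95% confidence intervals of edgeR's quasi-likelihood fit, filled points have an adjusted p below 0.05 and dotted lines mark 2-fold. Ccnd2, Cdk4 and Cdk6 lie above 0 in CEBPA-first against both other groups, and Ccnd3, Cdkn1b and Cdkn2d lie below it.

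Promoters of genes that moved in opposite directions without overlap between the 3 groups are shown so that their sequence can be set beside these values. RefSeq promoters (GRCm38.p6) were matched for 7 of the 10 genes, with 10 start sites, and the names without a match were Ccnd1, Ccnd2 and Cdkn1c. The 250 bases before each start were searched on both strands for CACGTG (the E-box bound by MYC-MAX), TTTNNCGC (a loose form of the E2F site), TTGCNNAA (C/EBP) and TTCNNNGAA (STAT). N stands for any base, so a match need not be a full site. Each line gives the 250 bases up to the start, 5′ to 3′ on the strand of the gene, with matches in capitals.
Cdk4, chr10:127063285-127063534, plus strand: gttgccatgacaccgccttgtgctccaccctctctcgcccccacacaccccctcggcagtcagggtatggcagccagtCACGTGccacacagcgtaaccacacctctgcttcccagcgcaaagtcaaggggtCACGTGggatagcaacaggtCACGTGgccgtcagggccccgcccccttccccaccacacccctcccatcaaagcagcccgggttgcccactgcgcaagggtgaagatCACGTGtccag
Cdk6, chr5:3343643-3343892, plus strand: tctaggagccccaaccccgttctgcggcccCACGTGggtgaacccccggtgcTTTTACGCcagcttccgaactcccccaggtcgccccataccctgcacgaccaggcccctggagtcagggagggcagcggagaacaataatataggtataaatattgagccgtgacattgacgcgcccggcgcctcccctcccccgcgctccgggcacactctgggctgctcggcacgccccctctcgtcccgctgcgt
Cdkn2d, chr9:21291210-21291459, minus strand: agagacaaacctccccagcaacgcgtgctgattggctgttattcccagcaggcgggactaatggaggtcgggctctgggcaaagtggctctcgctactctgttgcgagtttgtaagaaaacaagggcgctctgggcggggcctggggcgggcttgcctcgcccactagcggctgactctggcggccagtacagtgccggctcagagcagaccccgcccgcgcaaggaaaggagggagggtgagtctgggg
Ccnd3, upstream start, chr17:47504801-47505050, plus strand: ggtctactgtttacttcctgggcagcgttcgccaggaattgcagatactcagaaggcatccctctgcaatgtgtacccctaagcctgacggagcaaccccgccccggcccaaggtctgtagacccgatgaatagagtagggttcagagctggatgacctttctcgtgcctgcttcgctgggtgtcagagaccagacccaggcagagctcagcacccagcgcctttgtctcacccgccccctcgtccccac
Ccnd3, downstream start, chr17:47593217-47593466, plus strand: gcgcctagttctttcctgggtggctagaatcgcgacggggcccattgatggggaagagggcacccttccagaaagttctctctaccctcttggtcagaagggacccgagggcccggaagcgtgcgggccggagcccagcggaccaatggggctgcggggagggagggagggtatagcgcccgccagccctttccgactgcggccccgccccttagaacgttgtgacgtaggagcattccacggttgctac

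The Cdk4 window held CACGTG 4 times, beginning 172, 118, 98 and 11 bases before the start. At least 4 copies occurred in 7 of 32841 mouse promoter windows of this length (0.0213%), and at least 1 copy in 6.02%. In the Cdk6 window CACGTG occurred once, 220 bases before the start, and TTTNNCGC once, as TTTTACGC, 198 bases before it (4.28% of all windows hold TTTNNCGC). None of the 4 motifs was found in the windows of Ccnd3, Cdkn1a, Cdkn1b, Cdkn2c or Cdkn2d, where TTGCNNAA occurs in 9.57% and TTCNNNGAA in 7.02% of all windows. The matches describe the letters of these windows only, and binding was not measured here.

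Compared per kb of merged exons, so that genes of unlike length can be set side by side, Cdkn2d was the highest of the 10 in CSF3R-only at 148 CPM per kb, followed by Ccnd3 at 81.4, Cdk4 at 67.6 and Cdkn1a at 53.3. In CEBPA-first Cdk4 led at 142.7 CPM per kb, before Cdkn2d at 87.5, Ccnd3 at 53.2 and Cdkn1a at 41.4. The order of Cdk4 and Cdkn2d was thus reversed between these groups, with CSF3R-first at 101.2 for Cdk4 and 126.5 for Cdkn2d. The ranking depended on the length used. Per kb of the longest transcript, Ccnd3 led in CSF3R-only at 185.1 CPM per kb, before Cdkn2d at 163.8 and Cdk4 at 107, and in CEBPA-first Cdk4 led at 225.8, before Ccnd3 at 121.1 and Cdkn2d at 96.8. In CSF3R-first Cdk4 (160.2) was then above Cdkn2d (139.9), whereas the reversal of these genes between CSF3R-only and CEBPA-first was seen with both lengths. By merged exons, Cdk6 (8.61 to 23.2 CPM per kb over the group means), Cdkn2c (10.1 to 12.6), Ccnd2 (2.76 to 8.63) and Cdkn1b (2.14 to 3.39) were lower, and Ccnd1 and Cdkn1c reached at most 0.146 and 0.0979.

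Summed per kb, the 3 D cyclins were lower in the groups with both mutations, although Ccnd2 was higher in CEBPA-first. The sum ranged from 82.93 to 85.51 CPM per kb over the CSF3R-only samples, from 66.18 to 74.22 over CSF3R-first and from 60.88 to 64.53 over CEBPA-first, without overlap. Ccnd2 contributed 3.27% ± 0.643, 4.98% ± 1.17 and 13.9% ± 0.714 of this sum (SD). With the longest transcript as the length the D cyclin sum was 189.4, 157.4 and 134 CPM per kb, and the Ccnd2 share was 2.16%, 3.32% and 9.57%. Ccnd3 remained the main D cyclin, with 96.6%, 94.9% and 86.0% of the sum by merged exons and 97.7%, 96.6% and 90.4% by the longest transcript.

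The sum of the kinases ran the other way, with samples at 66.27 to 83.22 CPM per kb (CSF3R-only), 103.8 to 128.2 (CSF3R-first) and 159.4 to 174 (CEBPA-first). Cdk4 gave 88.7% ± 1.24, 86.9% ± 1.39 and 86.0% ± 0.802 of it. The INK4 inhibitors Cdkn2c and Cdkn2d summed to 158.2 ± 6.82, 139.1 ± 11.7 and 99.8 ± 5.94 CPM per kb, with the Cdkn2c share at 6.40%, 9.08% and 12.3%. CSF3R-first replicate A, at 151.5, lay inside the CSF3R-only range of this sum, which began at 150.8. The CIP/KIP sum, of which Cdkn1a was 93.9% to 94.9%, spanned 55.74 to 58.33 CPM per kb over CSF3R-only samples, 40.92 to 60.59 over CSF3R-first and 39.98 to 52.74 over CEBPA-first. The highest CSF3R-first value was that of replicate A, and replicates B and C (40.92 and 50.37) lay below every CSF3R-only sample. With the longest transcript as the length, the kinase sum was 117.4, 178.8 and 253.9 CPM per kb, the INK4 sum 174.8, 153.6 and 110.1 and the CIP/KIP sum 94.5, 84.4 and 72.9. The order of the group means was thus the same with both lengths. These sums describe RNA and were not tested, because their parts were.

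**Figure D3:**
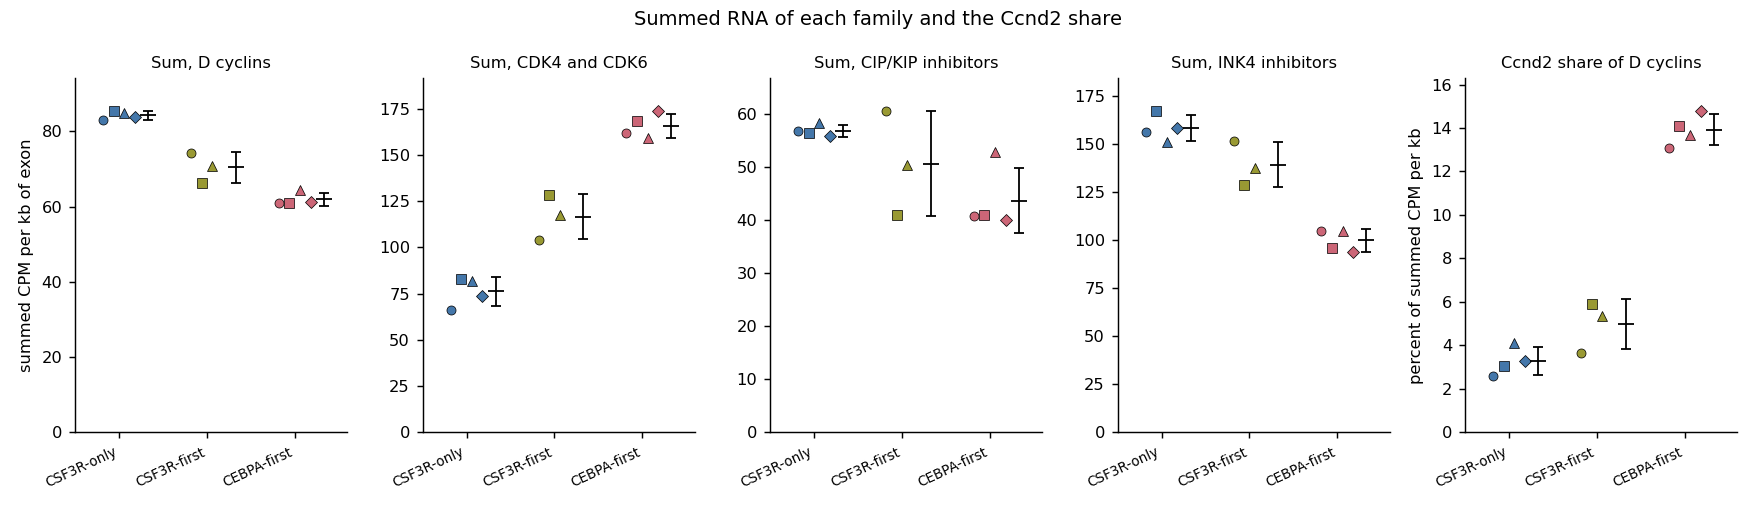
Summed CPM per kb of exon (y axis, linear from 0) of the D cyclins, CDK4 with CDK6, the CIP/KIP and the INK4 inhibitors, and the percent of the D cyclin sum that Ccnd2 makes up, by sample (symbols as replicate letters A circle, B square, C triangle, D diamond; bars mean ± SD). The kinase sum and the D cyclin sum each form 3 separate groups, in opposite order. In the CIP/KIP sum the CSF3R-first samples overlap CEBPA-first, and only replicate A is not below all CSF3R-only samples.

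Where CSF3R-first stood between the other groups was measured on the log2 scale, with 0 for the CSF3R-only mean and 1 for the CEBPA-first mean. Cdk6 was at 0.576 (single replicates 0.335 to 0.745), Cdk4 at 0.539 (0.414 to 0.658) and Ccnd3 at 0.466 (0.308 to 0.633). Ccnd2 was at 0.204 (0.00272 to 0.315), Cdkn2d at 0.302 (0.125 to 0.461), Cdkn1b at 0.349 (-0.232 to 0.846) and Cdkn2c at 1.16 (1.01 to 1.33). Cdkn1a was at 0.481 (-0.242 to 1.25), Ccnd1 at 0.536 (0.367 to 0.695) and Cdkn1c, with few counts, at 0.888 (0.303 to 1.75). Without CSF3R-first replicate A, Cdkn1b was at 0.639 and Cdkn1a at 0.843, Cdkn1c was at 1.18, Ccnd2 was at 0.304, and the other members lay between 0.391 and 1.07. The single-replicate values of Ccnd2 all lay below the lowest of Cdk4 and Cdk6, with CSF3R-first replicate A nearest to CSF3R-only for each of the 3 genes. In a direct test of CSF3R-first against the midpoint of the other groups, 3.55% of all genes were called and 0 of the 9 members were, while 3 of the 9 had an unadjusted p below 0.05. These were Ccnd2 (log2 -0.49, adjusted p = 0.073), Cdkn2c (0.18, adjusted p = 0.19) and Cdkn2d (0.15, adjusted p = 0.28). DESeq2 called 1 of the 9, Ccnd2 (-0.49, adjusted p = 0.012), and edgeR did so without CSF3R-only replicate A (-0.54, adjusted p = 0.028). With no count filter, or with the replicate letter as a block, edgeR called Ccnd2 as well.

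For the 3 genes with the largest edgeR change from CSF3R-only to CEBPA-first, the genes with the most similar pattern were sought. The measure was the root mean square difference of centred log2 CPM over the 11 samples. The third place of Ccnd1 was narrow (log2 -1.11, against 1.08 for Cdk4). By the range of group means of log2 CPM, Cdk4 (1.08) was ahead of Ccnd1 (1.02). Closest to Ccnd2 were Pdlim1 (difference 0.134), Maob (0.144) and Pycr1 (0.173). Maob, a monoamine oxidase gene, had 25.9, 33.1 and 77.6 CPM, and Pycr1, which encodes an enzyme of proline synthesis, had 3.93, 4.81 and 9.73. Closest to Cdk6 were Slc7a1 (0.0571), Ifrd2 (0.0841) and Top1mt (0.0901). Slc7a1, a cationic amino acid transporter gene, had 40.8, 73.5 and 114 CPM. Closest to Ccnd1 were Gm20633 (0.164), Enpp5 (0.198) and Eml2 (0.228), which is a looser match at the low counts of Ccnd1.

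Genes that act next to these 10 were followed in lists by function. From CSF3R-only to CEBPA-first, 35.4% of all tested genes rose and 36.6% fell. In the list of cyclins E and A with CDK2, which carry cells from G1 into S phase, 5 of 5 tested genes rose and 0 fell from CSF3R-only to CEBPA-first, 5 rose from CSF3R-only to CSF3R-first (21.6% of all genes did) and 3 were higher in CEBPA-first than in CSF3R-first (24.0% of all genes). The CDK2 phosphatase gene Cdc25a rose by a log2 value of 1.23 to CEBPA-first (56.84, 91.42 and 133.7 CPM in the 3 groups). Cyclin E genes rose as well, Ccne2 by 1.17 and Ccne1 by 1.04 (adjusted p = 4.8e-08 and 1.3e-07). The median over this list was 1.04, against -0.0045 over all genes.

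Of 8 mitotic cyclin and CDK1 genes, 7 rose and 1 fell to CEBPA-first (35.4% and 36.6% of all genes). Wee1 (log2 1.11, adjusted p = 9.7e-08), the kinase that holds CDK1 inactive, and Cdk1 (0.89, adjusted p = 8e-07) rose. Cdc25b (-0.96, adjusted p = 8.7e-08), a phosphatase that activates CDK1, fell. Of 6 genes for the CDK-activating kinase and for the chaperones that fold CDK4 and CDK6, 6 rose and 0 fell, led by the HSP90 genes Hsp90aa1 (1.06) and Hsp90ab1 (1.01) and by cyclin H, Ccnh (0.95). All 6 were also higher in CEBPA-first than in CSF3R-first (24.0% of all genes).

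Of 13 pocket protein and E2F genes, 10 rose and 3 fell to CEBPA-first (35.4% and 36.6% of all genes). The largest changes were in E2f5 (0.89), Tfdp1 (0.80), which encodes the E2F partner DP1, and Rbl1 (0.79), which encodes p107. Of 11 genes for the turnover of D cyclins and CDK inhibitors, 7 rose and 3 fell. Skp2, the F-box protein that marks p27 for destruction, had 22.29 ± 1.02, 35.74 ± 2.41 and 61.54 ± 6.42 CPM (SD) and rose to CEBPA-first (log2 1.47, adjusted p = 6.9e-09). Dtl, which targets p21 and CDT1, rose by 1.34 (adjusted p = 6.5e-08), and Cks1b, the SKP2 cofactor, rose by 1.03 (adjusted p = 2e-07).

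Of 16 genes for p53 and its targets other than Cdkn1a, 11 fell and 5 rose to CEBPA-first, and 10 fell and 1 rose from CSF3R-only to CSF3R-first (21.1% and 21.6% of all genes). Trp53inp1 fell by 2.16 on the log2 scale (133.6, 70.29 and 29.9 CPM in the 3 groups, adjusted p = 7.9e-08). Perp (-1.33, adjusted p = 2.5e-05) and Bbc3 (-1.29, adjusted p = 9.9e-09), the gene of the cell death protein PUMA, fell as well. Of 21 cyclin and CDK genes outside the division core, 10 fell and 5 rose, and Cdk14 (-2.49), Cdk18 (-1.78) and Ccng2 (-0.95) changed most. Of 20 proliferation markers, 20 rose and 0 fell to CEBPA-first, and Mcm6, Mcm7 and Mcm3, subunits of the replicative helicase, rose by 1.12, 1.1 and 1.1. Their summed level spanned 3180 to 3850, 4830 to 5670 and 6200 to 6930 CPM over the samples of the 3 groups. As 35.4% of all genes were called higher and 36.6% lower between CEBPA-first and CSF3R-only, these counts are given as a description, and no test of the lists was made.

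**Figure D4:**
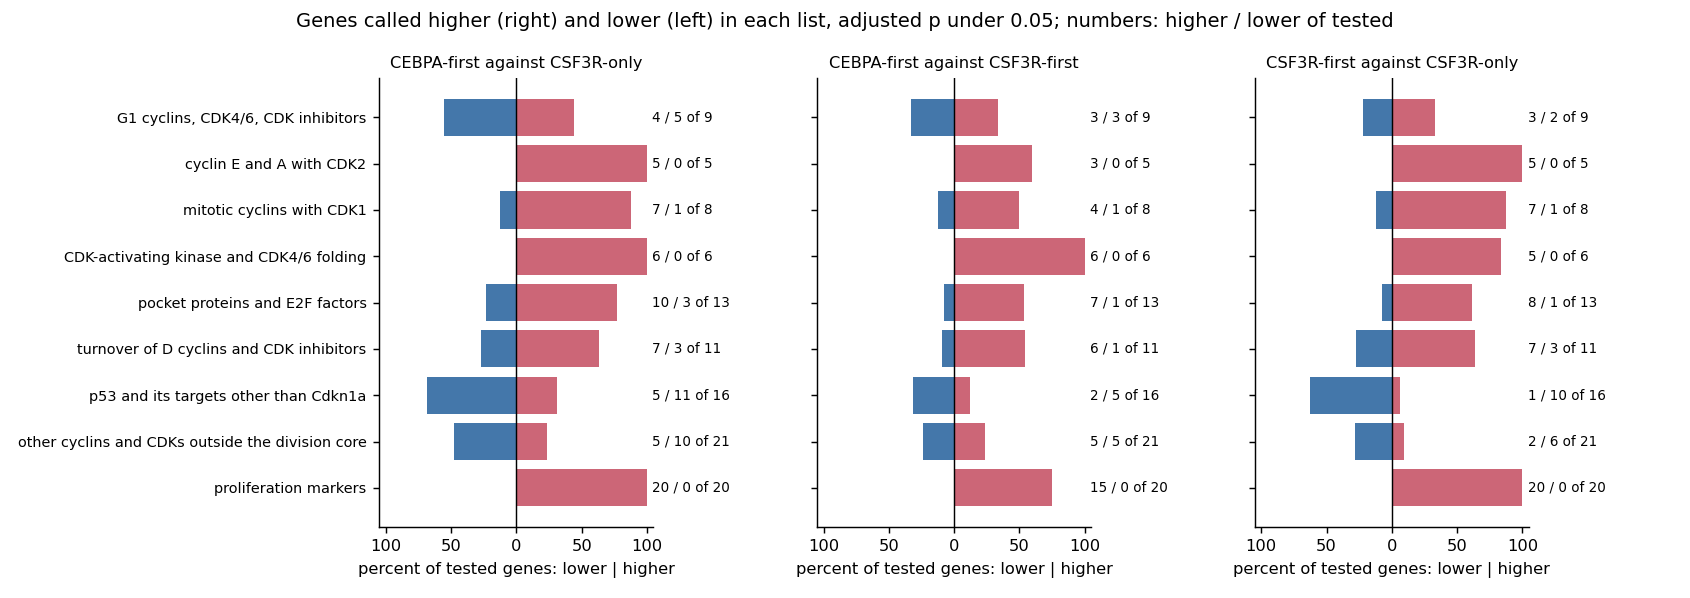
Percent of the tested genes of each list called higher (right of 0) or lower (left of 0) at an adjusted p below 0.05 in the 3 comparisons; the numbers give higher / lower of tested. The lists of cyclins E and A, of CDK folding and of proliferation markers lie to the right throughout, and the 10 genes of G1 control are split in both directions.

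Markers of maturing cells moved with the same groups. Counts of markers called higher or lower are for CEBPA-first against CSF3R-only, where 35.4% of all tested genes were higher and 36.6% lower. The 16 neutrophil maturation markers summed to 29000 to 36200 CPM in the CSF3R-only samples. The sums were 35200, 21000 and 24200 CPM for CSF3R-first replicates A, B and C and 10800 to 15700 CPM for CEBPA-first samples, and 15 of 16 fell and 1 rose to CEBPA-first. The gene that rose was Chil3, which encodes a chitinase-like lectin, with 1167, 6957 and 5603 CPM. Without Chil3, left out after its values were seen, the sum was 28100 to 34700 CPM in CSF3R-only, 26300, 15100 and 18100 CPM in CSF3R-first replicates A, B and C and 6590 to 8780 CPM in CEBPA-first. The 12 monocyte and macrophage markers summed to 2800 to 3560, 1430 to 2520 and 654 to 993 CPM, with 11 lower and 1 higher. The 10 megakaryocyte markers summed to 959 to 1300, 359 to 566 and 115 to 159 CPM, with 10 lower. For 8 tested eosinophil markers, 6 were lower and the list summed to 250 to 379, 62 to 142 and 31.6 to 39.6 CPM. The 10 erythroid markers (8 lower, 1 higher) summed to 524 to 728, 383 to 746 and 474 to 586 CPM. The gene that rose was Tfrc, the transferrin receptor gene that dividing cells also express, with 270.9, 349.5 and 453.1 CPM. Without Tfrc, left out after its values were seen, the erythroid list summed to 287 to 431, 128 to 385 and 53.9 to 82.3 CPM. The globin genes Hba-a1, Hba-a2 and Hbb-bs fell to CEBPA-first, with log2 fold changes of -4.86, -5.33 and -5.01. The 10 mast cell and basophil markers (5 lower, 2 higher) summed to 2160 to 3180, 1360 to 1650 and 1410 to 1840 CPM. Of 13 lymphoid markers 5 were tested (3 lower, 2 higher), 2 were at 0 in every library, and the list summed to 113 to 191, 74.2 to 103 and 56.7 to 72.5 CPM. The 15 stem and progenitor markers (10 higher, 4 lower) summed to 3230 to 4030, 4970 to 5620 and 6540 to 7010 CPM. Most of this sum came from the primary granule genes Mpo, Elane, Prtn3 and Ctsg, which promyelocytes also express. Without these 4 genes, left out after their values were seen, the list summed to 708 to 1040, 583 to 698 and 635 to 722 CPM. The rest of the list, all known from stem or progenitor cells, was split. Cd34, Ly6a, Procr and Meis1 fell to CEBPA-first, with log2 fold changes of -2.31, -2.67, -2.07 and -1.55. Mecom (6.47, from 0.17 to 15.4 CPM), Hlf (2.26), Myb (1.62), Flt3 (1.5), Sox4 (1.39) and Kit (0.33) rose, and Gata2 did not pass (-0.35, adjusted p = 0.053). Thus RNA of mature myeloid markers was present after 48 h of culture in cells that had been sorted as lineage-negative before it. Whether this RNA arose before or after the sort was not tested. CSF3R-first replicate A, in which Cdkn1a and Cdkn1b were highest and Cdk4 and Cdk6 lowest of its group, had a neutrophil sum within the CSF3R-only range with Chil3 and below it without, and its monocyte (2520 CPM), eosinophil (142) and megakaryocyte (359) sums lay below that range. In bulk RNA, a change in the share of a cell type and a change of RNA per cell cannot be told apart, and the part of the cell mixture in the values of the 10 genes was not tested.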

How the data were processed

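RNA-seq counts of 11 mouse marrow samples (CSF3R-only n = 4, CSF3R-first n = 3, CEBPA-first n = 4) were used. The authors deposited whole-number read counts per Ensembl gene, not normalized. Reads had been trimmed with Trimmomatic and aligned with STAR, and the submitters' processing notes name mm10 and DESeq2. The counting tool, annotation and strand setting are not given in the sources used here. Library construction from little RNA (SMARTer kit) can add noise to genes with few counts. The table's 11 sample columns were matched to samples by title.

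Counts were scaled by TMM (factors 0.936 to 1.08), filtered with filterByExpr (15703 genes kept) and tested in one fit of the 3 groups with edgeR 4.0.16 in R 4.3.3, with Benjamini-Hochberg adjustment over all tested genes. SE is the absolute log2 fold change over the square root of F. CPM values use TMM-scaled library sizes, and log2 CPM a prior count of 2. Levels per kb use the merged exons of GENCODE M21 (GRCm38, the same assembly as mm10). A count of 3 corresponds to 0.0415 to 0.0626 CPM, a limit for counting error only. BLAST+ 2.17.0 found no stretch of at least 100 bases at 97% identity elsewhere for Cdkn1b, Cdkn2c and Cdkn2d. For the other members such stretches lay in overlapping genes or, in Ccnd3 and Cdk6, in at most 3.65% of the longest transcript.

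A gene is said to rise or fall at an adjusted p below 0.05. All 10 members are named. From each pathway list the 3 genes with the largest called change between CEBPA-first and CSF3R-only are named, with Cdkn2a, Cdkn2b, Cebpa and Csf3r. The marker genes named were chosen after their values were seen. The members and lists were chosen with earlier results of these data known. Motifs were chosen afterwards. Other tools tried were DESeq2 1.42.0 and limma 3.58.1. On simulated counts for CEBPA-first against CSF3R-only (15703 genes), edgeR recovered 98 of 108 genes changed 2-fold and 92 of 92 changed 4-fold, and called 10 unchanged genes. Far fewer genes were changed there than the 72.0% called in the data. None of the changed genes was as scarce as Ccnd1 or Cdkn2b. The simulation therefore does not cover these conditions. Figures were drawn with matplotlib 3.10.9.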

Additional observations from a re-analysis of the deposited data

Results flagged for a closer look

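In the groups of 4 samples, 20 sets of values of the 10 genes were checked for a sample far from its group (Dixon's criterion), of which chance alone would mark about 1, and 2 were marked. Cdkn1a in CEBPA-first replicate C had 179 CPM, and the nearest sample of its group had 138 CPM. Without this library the log2 difference of Cdkn1a between CEBPA-first and CSF3R-first was -0.31 (edgeR, adjusted p = 0.037) in place of -0.20 (adjusted p = 0.19). Cdkn1b in CSF3R-only replicate A had 16.7 CPM, and the nearest sample had 15.1 CPM. The fall of Cdkn1b from CSF3R-only to CEBPA-first was called with and without it.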

How the results depend on the processing

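The direction of every called member and comparison held under all alternatives run: RLE, upper quartile or no scaling factors, no count filter or a stricter one, DESeq2, limma-voom, a replicate block, a fit of only the groups compared, a test against 2-fold, and each sample left out. With library sizes only (median of all genes 0.13 for CEBPA-first against CSF3R-only), 0 members fell at least 2-fold in that comparison and 1 fell from CSF3R-only to CSF3R-first. The latter count was also 1 without a count filter and in a fit of the compared groups only, since Cdkn2d missed the threshold, and ranged from 1 to 4 with single samples left out, with 4 reached without CSF3R-first replicate A. Members falling at least 2-fold to CEBPA-first ranged from 0 to 1 with single samples left out. Below the midpoint of the other groups, 1 member (Ccnd2) was called in CSF3R-first without a count filter and with DESeq2, and 0 to 1 with single samples left out. Over all genes DESeq2 called 893 against the midpoint and edgeR 558. Tested against a 2-fold change, 2 members rose and 0 fell to CEBPA-first (2495 genes in all), 0 rose and 0 fell against CSF3R-first (799), 0 rose and 0 fell from CSF3R-only to CSF3R-first (201), and 13 genes passed for the midpoint.

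Letters in the sample names were not taken as pairs, since the labels do not say what they mark and not every same-letter pair was correlated above 0.1. Of 10 same-letter pairs, 7 had deviations correlated above 0.1 (-0.107 to 0.362), and 6 of 11 samples correlated best with their own letter. With the letter as a replicate block, 1 member (Ccnd2, log2 -0.48, adjusted p = 0.012) was called below the midpoint, and Ccnd2 was called from CSF3R-only to CSF3R-first (0.35, adjusted p = 0.014). Ccnd1 and Cdkn1c, with at most 50 and 13 counts, are limited by depth.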
